A study of Homo sapiens with 8 samples.

Results

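The genes of the cohesin ring and of CTCF were followed in 2 Ewing sarcoma (EwS) cell lines. The set was chosen by name from the table of gene expression, with the row of highest mean kept for each symbol: STAG1, STAG2, RAD21, SMC1A, SMC3, NIPBL, WAPL, PDS5A, PDS5B and CTCF, 10 of the 60332 genes listed. All 10 belonged to the 15175 genes that averaged at least 1 FPKM (fragments per kilobase of transcript, scaled to the reads mapped), and so all were tested. RNA-seq was done on RD-ES and SK-N-MC, both of which carry the EWSR1::FLI1 fusion. In each line, control cells had received the empty lenti-dCas9-KRAB vector, and eKD2 cells had received lenti-dCas9-KRAB together with a guide to the GGAA repeat upstream of LOXHD1, where KRAB silences the enhancer. All 4 groups, controls included, were transduced at an MOI of 10, selected with 1 µg/ml puromycin for 3 days and used within 5 passages, and each group had 2 biological replicates. The eKD2 cells carried 1 guide, so an effect of that guide elsewhere cannot be told apart from loss of LOXHD1.

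Cohesin is a ring that holds sister chromatids together and extrudes chromatin loops. SMC1A and SMC3 are the ATPase arms, RAD21 is the kleisin that closes the ring, and either STAG1 or STAG2 binds RAD21, so that a cell holds cohesin of both kinds. NIPBL loads cohesin and drives its ATPase, WAPL opens the ring to release it, and PDS5A or PDS5B binds it and takes part in release and in its acetylation. CTCF binds DNA and stops the extruding ring, which sets the anchors of loops. STAG2 is among the few genes recurrently mutated in EwS, and STAG1 can sustain cohesion when STAG2 is lost.

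LOXHD1, the target of the knockdown, measured 21.4 and 21.2 FPKM in RD-ES control against 1.03 and 1.02 FPKM in RD-ES eKD2. SK-N-MC control libraries had 159 and 169 FPKM and SK-N-MC eKD2 libraries 11 and 12 FPKM, so that its levels followed the labels in all 8 libraries. All 7 of the Ewing sarcoma marker genes were expressed, CD99 at 201 to 586 FPKM and NKX2-2, a homeobox factor induced by the fusion, at 24.2 to 30.7 FPKM. In control cells 5 of the 7 were higher in SK-N-MC than in RD-ES, against 53.1% of all genes tested, and CD99 and LIPI were lower. NR0B1 averaged 3.08 FPKM in RD-ES control and 53.1 in SK-N-MC control, PRKCB 12.1 and 116.6, CD99 576 and 209, and LIPI 59.2 and 20.9. Of the markers of other cell types, EPCAM (epithelium) averaged 0.373 FPKM in RD-ES control and 4.29 in SK-N-MC control, PTPRC (CD45, leukocytes) averaged 0.0155 and 22.0 FPKM, and PECAM1 was not among the rows analysed here. Of 10 further leukocyte genes, looked up after PTPRC was seen, CD3E and MS4A1 were at 0 in every group, CD14, CSF1R, SPI1, LYZ and CD48 stayed below 1 FPKM in every group mean, CD79A was higher in SK-N-MC, at 7.95 against 1.63 FPKM in control, and ITGAM was lower in SK-N-MC eKD2 than in RD-ES eKD2, at 0.402 against 2.77 FPKM. The part of these transcripts in the differences between lines was not tested. The table holds no read counts. The steps between low values put the depth of the libraries at 0.249 (RD-ES eKD2 1) to 1 relative to SK-N-MC control 1, which was the deepest.

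For the balance between STAG1 and STAG2, the bases around their RefSeq start sites are shown, 250 before and 50 after the start (GRCh38.p14), each read along its gene. The table gave 1 start for STAG1 (chr3:136752329-136752628, minus strand) and 3 for STAG2, of which the start numbered 2 (chrX:123961062-123961361, plus strand) is the only member promoter that held 2 joined GGAA units, the letters that EWSR1::FLI1 binds when repeated. Capitals mark that match on the opposite strand, with its leftmost letter at -54 from the start.
STAG1 promoter: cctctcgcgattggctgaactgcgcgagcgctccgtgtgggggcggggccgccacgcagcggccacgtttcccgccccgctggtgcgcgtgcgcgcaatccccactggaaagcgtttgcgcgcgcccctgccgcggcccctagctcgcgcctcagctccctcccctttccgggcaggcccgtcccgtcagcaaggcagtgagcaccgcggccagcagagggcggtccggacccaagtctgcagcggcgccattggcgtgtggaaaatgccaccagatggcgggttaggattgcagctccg
STAG2 promoter, start 2: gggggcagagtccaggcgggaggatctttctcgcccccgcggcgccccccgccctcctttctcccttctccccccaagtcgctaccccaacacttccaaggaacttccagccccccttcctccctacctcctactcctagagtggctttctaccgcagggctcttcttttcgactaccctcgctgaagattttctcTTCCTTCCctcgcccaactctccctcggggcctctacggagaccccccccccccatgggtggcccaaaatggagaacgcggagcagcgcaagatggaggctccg

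Letters were searched on both strands of 12 promoters from 9 members, and RAD21 had no entry in the promoter table. GGAAGGAA was in 1 of the 12, against 3.67% of all 35116 promoters of the same length. The ETS core CCGGAAG was in 3 of the 12, NIPBL and 2 overlapping starts of SMC1A that share the same site, against 10.3% of all. AGGNGGC, 1 form of the core of the CTCF motif, was in 6 of the 12, against 35.9% of all. These were the third start of STAG2, the second of SMC1A, and NIPBL, PDS5A, PDS5B and CTCF. Other forms of that core were not searched, so a promoter without AGGNGGC may still hold one. The first pair of motifs have the letters GGAAG in common, and no member promoter held both. The member promoters had a median GC content of 67.2%, against 58.7% over all promoters.

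All 10 genes were expressed in both lines, and the plot of levels by library shows them from 12.8 FPKM (WAPL in SK-N-MC eKD2) to 337 FPKM (RAD21 in SK-N-MC control). FPKM is scaled by transcript length, which allows a rough comparison of levels between genes. Reads in exons shared with other genes, described below for STAG1, cannot be told apart. In RD-ES control cells the mean levels ran from SMC1A (130.5 FPKM) through RAD21 (121), PDS5A (67.6), STAG2 (52.3), PDS5B (47.9), SMC3 (46.0), NIPBL (40.7), CTCF (23.1) and STAG1 (17.7) to WAPL (16.9). STAG2 overlapped with PDS5B, PDS5B with SMC3 and STAG1 with WAPL, and the other neighbours in that order were separate. In SK-N-MC control cells the order was RAD21 (335 FPKM), STAG2 (176), SMC1A (120.1), PDS5B (74.4), PDS5A (70.6), SMC3 (51.6), NIPBL (36.5), STAG1 (31.7), CTCF (26.3) and WAPL (14.5), with no overlap between neighbours. STAG2 thus stood behind SMC1A, RAD21 and PDS5A in RD-ES and behind RAD21 alone in SK-N-MC, while WAPL was lowest in both. In RD-ES eKD2 cells RAD21 (127 FPKM) and SMC1A (125 FPKM) overlapped at the top, and in SK-N-MC eKD2 cells PDS5A (73.1 FPKM) stood above PDS5B (65.5 FPKM).

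**Figure D1:**
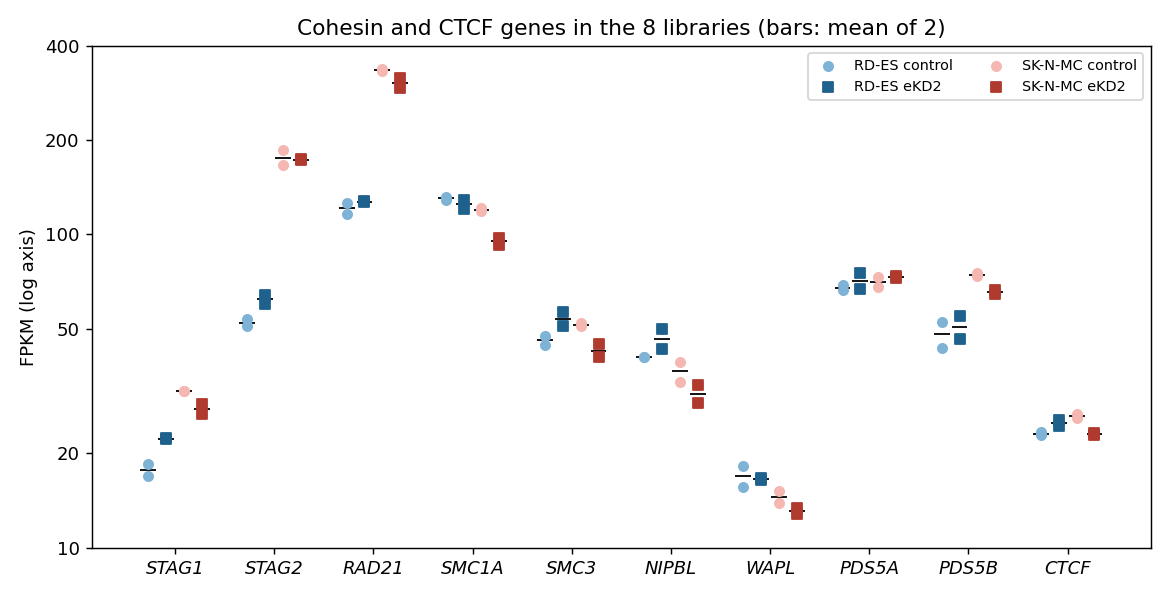
FPKM (log axis) of the 10 cohesin and CTCF genes in each library, with circles for control, squares for eKD2 and a bar at the mean of 2. STAG2 and RAD21 stand far higher in SK-N-MC than in RD-ES, at 166 to 186 against 50.9 to 53.8 FPKM and 333 to 337 against 116 to 127 FPKM in control cells, while PDS5A overlaps between the lines.

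The first comparison was between the lines in control cells. SK-N-MC cells held more STAG2, RAD21, STAG1 and PDS5B transcript than RD-ES cells, and the remaining 6 genes did not pass the test. These 4 of 10 stand against 31.4% of all genes tested that were higher in SK-N-MC (adjusted p under 0.05, limma with Benjamini-Hochberg adjustment). No member was lower, against 26.4% of all genes, and in either direction 57.8% of genes passed. The median difference of the members was 0.17 on the log2 scale of FPKM + 1, against 0.065 over all genes tested. A member share near that of all genes is no result about the set, and the values of the single genes follow.

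STAG2, the more abundant STAG subunit, was at 53.8 and 50.9 FPKM in RD-ES control and at 166 and 186 FPKM in SK-N-MC control. The groups were far apart, 3.36-fold by the means, with a log2 difference of 1.73 ± 0.08 (SE, adjusted p = 2.42e-05, limma), and 89.2% of the genes tested differed by less. RAD21, the kleisin, was at 127 and 116 FPKM in RD-ES control and at 337 and 333 FPKM in SK-N-MC control. Every SK-N-MC library was above every RD-ES library, by 2.76-fold in the means, with a log2 difference of 1.46 ± 0.07 (SE, adjusted p = 2.55e-05, limma).

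STAG1, the other STAG subunit, was at 18.5 and 16.9 FPKM in RD-ES control and at 31.7 and 31.8 FPKM in SK-N-MC control. It was 1.79-fold higher in SK-N-MC, with no overlap and a log2 difference of 0.81 ± 0.08 (SE, adjusted p = 0.000368, limma). PDS5B was at 52.4 and 43.5 FPKM in RD-ES control and at 73.8 and 75.1 FPKM in SK-N-MC control, 1.55-fold higher, with a log2 difference of 0.63 ± 0.12 (SE, adjusted p = 0.00476, limma). Across all alternatives tried, the adjusted p stayed at or below 0.000777 for STAG2, 0.000862 for RAD21, 0.00477 for STAG1 and 0.0331 for PDS5B.

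The ATPase arms were close to level between the lines in control cells. SMC1A was at 129 and 132 FPKM in RD-ES against 119 and 121 FPKM in SK-N-MC, a log2 difference of -0.12 (95% interval -0.27 to 0.03). SMC3 was at 47.6 and 44.5 FPKM in RD-ES against 52.3 and 50.8 FPKM in SK-N-MC, a log2 difference of 0.16 (95% interval -0.05 to 0.37). Neither passed the test, although the libraries of the lines did not overlap for either gene.

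The loader NIPBL was at 40.7 FPKM in both RD-ES control libraries and at 39.3 and 33.8 FPKM in SK-N-MC control (log2 difference -0.15, adjusted p = 0.301, limma). WAPL, the release factor, was at 18.2 and 15.7 FPKM in RD-ES against 15.2 and 13.8 FPKM in SK-N-MC (log2 difference -0.21, adjusted p = 0.115, limma). PDS5A was at 68.9 and 66.3 FPKM in RD-ES against 67.8 and 73.4 FPKM in SK-N-MC. These values overlapped (95% interval of the log2 difference -0.14 to 0.26). CTCF was at 23.4 and 22.8 FPKM in RD-ES against 25.9 and 26.8 FPKM in SK-N-MC, 1.14-fold higher with no overlap, and its log2 difference of 0.18 missed the threshold (adjusted p = 0.0637, limma) but passed it with no filter on low values (adjusted p = 0.0412). Scaling each library to the same median shifted the line difference of all genes by -0.107, and with it SMC1A (log2 -0.27, adjusted p = 0.00771) and WAPL (log2 -0.35, adjusted p = 0.0359) passed as lower in SK-N-MC. Over the alternatives tried the adjusted p ran from 0.00771 to 0.364 for SMC1A, from 0.0359 to 0.416 for WAPL and from 0.0412 to 0.696 for CTCF. In these bulk samples, fewer cells of a kind and less RNA per cell cannot be told apart.

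In eKD2 cells the same 4 genes were higher in SK-N-MC, against 28.2% of all genes, and 4 others were lower, against 28.1% of all genes, with 56.3% of genes passing in either direction. STAG2 differed by 1.47 and RAD21 by 1.25 on the log2 scale (2.79-fold and 2.4-fold), PDS5B by 0.37 and STAG1 by 0.30. NIPBL (-0.56), SMC1A (-0.39), SMC3 (-0.33) and WAPL (-0.32) were lower in SK-N-MC (adjusted p from 0.00267 to 0.0325, limma). CTCF (-0.11) and PDS5A (0.04) did not pass. The count of 8 fell to 5 without RD-ES eKD2 replicate 2, without SK-N-MC eKD2 replicate 1, without SK-N-MC eKD2 replicate 2 or with no filter on low values, and STAG2, RAD21, SMC1A and NIPBL were the members whose call held under every alternative.

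**Figure D2:**
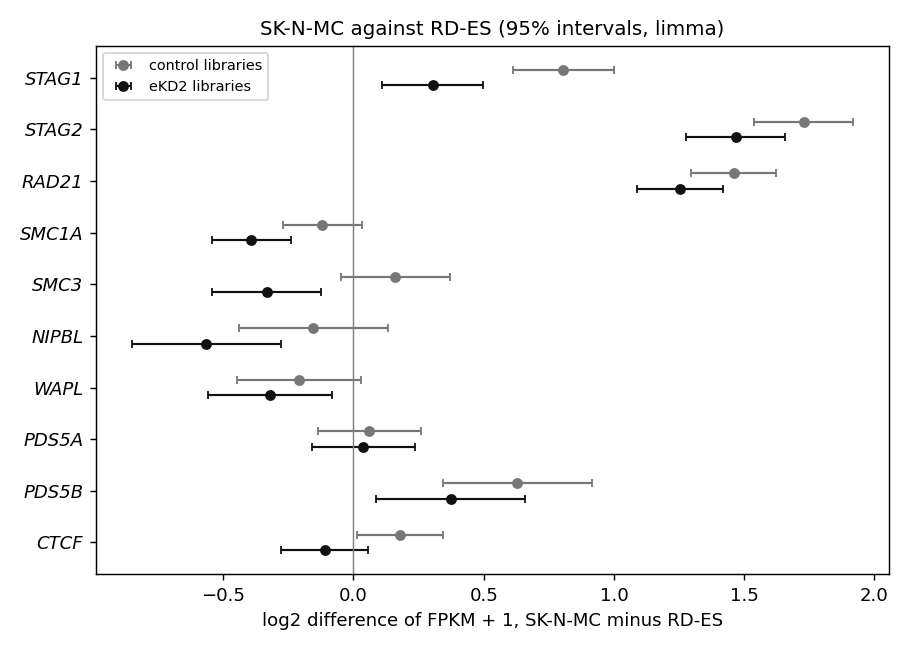
Log2 difference of FPKM + 1 between SK-N-MC and RD-ES (x axis) for each gene (y axis), with 95% intervals from limma, for control libraries (grey) and eKD2 libraries (black). STAG2 (1.73 and 1.47) and RAD21 (1.46 and 1.25) lie far to the right in both, and the intervals of NIPBL, SMC1A, SMC3 and WAPL lie below 0 only in eKD2 libraries.

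The balance between the STAG subunits was then measured within each library, where it does not depend on the scaling of libraries. STAG1 made up 25.6% and 25.0% of the summed STAG1 and STAG2 FPKM in the RD-ES controls, and 25.8% and 27% after eKD2. Its share in SK-N-MC was 16.0% and 14.6% without eKD2 and 14.3% and 13.3% with it. STAG2 was the larger share in all 8 libraries, and every RD-ES library had a higher STAG1 share than every SK-N-MC library. The log2 ratio of STAG1 to STAG2 was -1.52 ± 0.06 (SD, n = 4) in RD-ES against -2.56 ± 0.13 (SD, n = 4) in SK-N-MC, a difference of -1.04 (two-sided exact permutation test, p = 0.0286, the smallest that 4 against 4 allows, adjusted p = 0.0429 over 3 balances). The 4 libraries of a line pool control and eKD2, and the permutation did not keep these apart, so the SD also holds any eKD2 shift. Both genes were higher in SK-N-MC, with STAG2 differing by more than STAG1.

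Within a line the balance of STAG1 to STAG2 moved little with eKD2. The mean log2 ratio went from -1.56 to -1.48 in RD-ES (0.08 higher in eKD2) and from -2.47 to -2.64 in SK-N-MC (0.17 lower in eKD2). The groups did not overlap in either line, but 2 against 2 cannot go below p = 0.33 in a two-sided exact permutation test, the value found in both.

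STAG1 shares 1661 exon bases, 21.2% of its exon length, with PCCB, a mitochondrial carboxylase subunit encoded on the opposite strand. PCCB was at 58.2 to 156 FPKM over the 8 libraries and was itself higher in SK-N-MC control by 1.24 on the log2 scale. The library kit is not stated to keep strand, so reads in the shared exons cannot be told apart, and their part in the STAG1 values was not tested. STAG2 shares 241 bases (1.51%) with TENM1 on the opposite strand and RAD21 shares 576 (4.01%) with UTP23. CTCF shares 1326 (13.1%) with a lncRNA (ENSG00000237718) that was listed at 0 in every library.

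The balance of PDS5A to PDS5B, which bind the ring at the same place, also differed between the lines. PDS5A made up 56.8%, 60.4%, 57.9% and 59.2% of the summed FPKM in the 4 RD-ES libraries (control 1 and 2, then eKD2 1 and 2) and 47.9%, 49.4%, 52.2% and 53.3% in the 4 SK-N-MC libraries. The log2 ratio averaged 0.50 ± 0.09 over the RD-ES libraries and 0.04 ± 0.14 over the SK-N-MC libraries (SD, n = 4 each), a difference of -0.46 and no overlap (two-sided exact permutation test, p = 0.0286, adjusted p = 0.0429). Here too control and eKD2 were pooled within a line, and the permutation did not keep them apart. In SK-N-MC the ratio was 0.24 higher in eKD2 than in control, with no overlap (exact permutation test, p = 0.33), and in RD-ES it differed by -0.0023 (exact permutation test, p = 1.0). The log2 ratio of the loader NIPBL to the release factor WAPL averaged 1.37 ± 0.18 over the RD-ES libraries and 1.28 ± 0.08 over the SK-N-MC libraries (SD, n = 4 each), and did not differ beyond this spread (exact permutation test, p = 0.429).

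RAD21 was then set against the STAG subunits, which it binds. STAG2 made up 73.0% to 86.7% of the summed STAG FPKM, and ratios of other gene pairs were not taken as a background. RAD21 FPKM divided by the summed STAG1 and STAG2 FPKM was 1.75 and 1.71 in the RD-ES controls, 1.47 and 1.54 after eKD2, 1.70 and 1.53 in SK-N-MC control and 1.57 and 1.46 in SK-N-MC eKD2, so that the lines overlapped. RAD21 divided by SMC3, in contrast, was 2.25 to 2.66 in RD-ES against 6.44 to 7.22 in SK-N-MC. SMC1A divided by SMC3, the arms that pair with each other, was 2.13 to 2.97 in RD-ES against 2.08 to 2.40 in SK-N-MC. In control cells RAD21, STAG2 and STAG1 were each higher in SK-N-MC, by 2.76-fold, 3.36-fold and 1.79-fold. The arms did not pass the test between lines there.

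**Figure D3:**
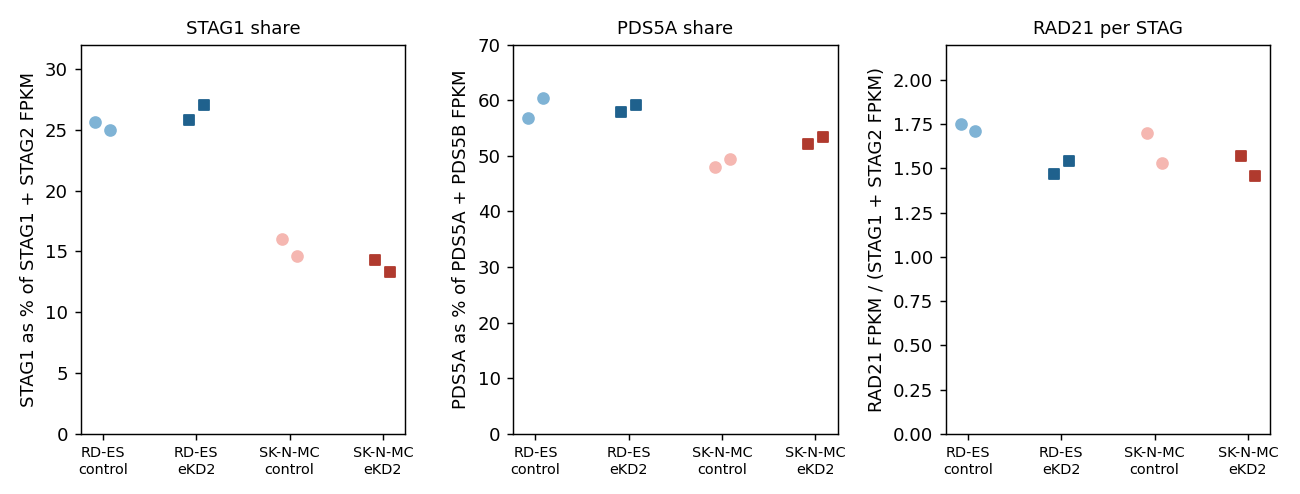
STAG1 as a percent of STAG1 + STAG2 FPKM (left), PDS5A as a percent of PDS5A + PDS5B FPKM (middle) and RAD21 FPKM over the summed STAG FPKM (right) in each library, all axes from 0. The STAG1 share is 25.0% to 27% in RD-ES against 13.3% to 16.0% in SK-N-MC, while RAD21 per STAG lies between 1.46 and 1.75 in both lines.

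The genes around the members were read next, a comparison chosen after the values of the members had been seen. Among protein-coding genes tested that start within 5 Mb (GRCh37), STAG2 (chrX:123094062-123556514) had 23 neighbours, whose median difference between lines in control cells was -0.32 on the log2 scale. None of them reached the 1.73 of STAG2, the highest being TMEM255A at 1.42. XIAP and THOC2, which lie closest on the side before STAG2, differed by 0.20 and 0.08 and did not pass the test. Over the 426 chromosome X genes tested, the median was -0.27, and 15 genes were above STAG2.

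RAD21, on chromosome 8, stood otherwise. All 14 of its neighbours were higher in SK-N-MC control and passed the test, against 31.4% of all genes tested. Their median was 1.01, and 4 of them exceeded the 1.46 of RAD21. The median of the 440 chromosome 8 genes tested was 0.77. STAG1 (chr3:136055078-136471245) had 39 neighbours with a median of 0.67, of which 26 passed as higher and 6 as lower, and its own 0.81 lay among them. PDS5B (chr13:33160589-33352157) had 27 neighbours with a median of 0.87, of which 21 passed as higher, and 19 exceeded its own 0.63. Over all protein-coding genes tested the median difference was 0.06. Of all genes tested, 31.4% passed as higher in SK-N-MC control and 26.4% as lower. DNA copy number was not analysed here, and its part in the line differences was not tested.

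The other members differed little between lines in control cells. Around WAPL, 18 of 22 neighbours passed as lower in SK-N-MC and 1 as higher, against 26.4% and 31.4% of all genes tested. Around CTCF these were 51 and 11, and around SMC1A 23 and 8. Neighbours of SMC3 (6 lower and 5 higher), NIPBL (15 and 13) and PDS5A (10 and 11) passed in either direction. SMC1A (chrX:53401070-53449677) had 59 neighbours with a median of -0.24, SMC3 (chr10:112327442-112365806) had 22 with a median of 0.05, and WAPL (chr10:88195013-88281549) had 22 with a median of -0.72, of which 18 were lower than WAPL. NIPBL (chr5:36876871-37066515) had 36 with a median of -0.12, PDS5A (chr4:39824483-39979576) had 26 with a median of 0.06, and CTCF (chr16:67596370-67673080) had 98 with a median of -0.52, of which 80 were lower than CTCF.

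**Figure D4:**
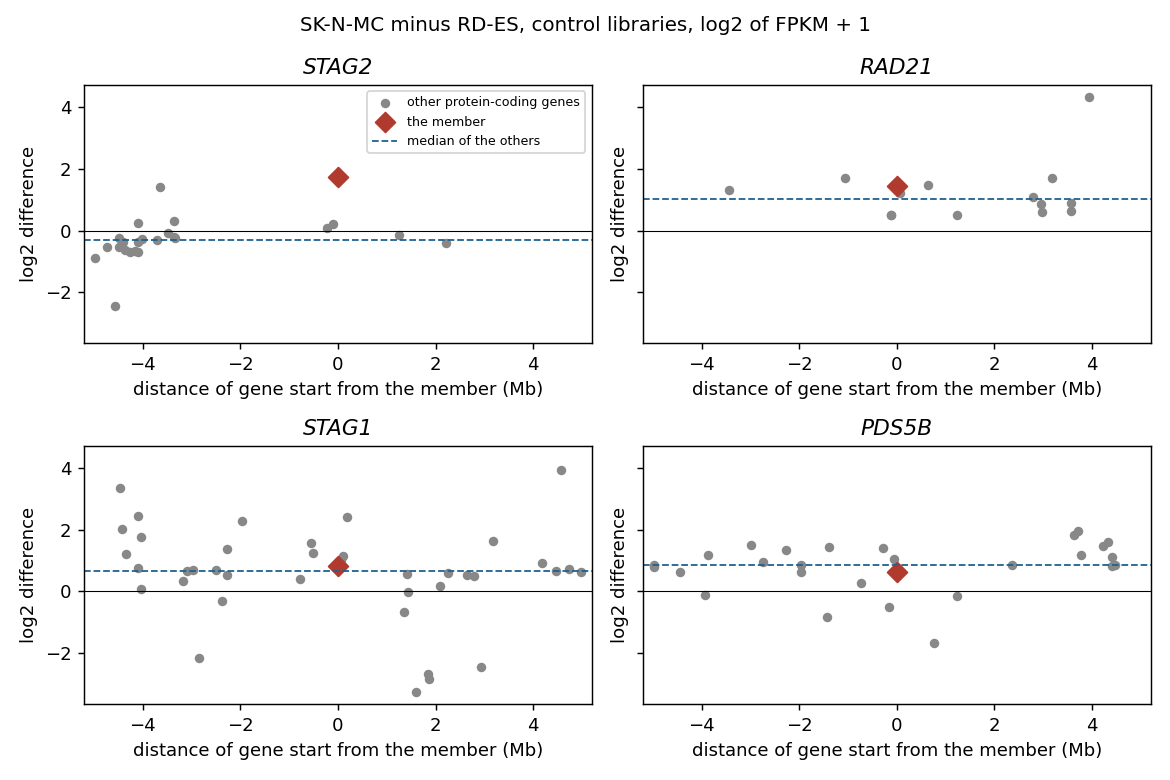
Log2 difference of FPKM + 1 between SK-N-MC and RD-ES in control libraries (y axis) for protein-coding genes tested within 5 Mb of 4 members, by distance of gene start in Mb (x axis), with the member as a red diamond and the median of the others as a dashed line. STAG2 lies at 1.73 above a median of -0.32, whereas the medians around RAD21 (1.46), STAG1 (0.81) and PDS5B (0.63) are 1.01, 0.67 and 0.87.

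The second comparison asked what silencing of the LOXHD1 enhancer did to these genes. No member passed the adjusted threshold in either line, and STAG1, which had the smallest p in RD-ES, was 25.6% higher there and at -12.5% in SK-N-MC. In RD-ES 0.343% of all genes passed and in SK-N-MC 0.323%. The eKD2 values of the members lay mostly above control in RD-ES and mostly below it in SK-N-MC, and the plot of eKD2 changes sets the lines side by side.

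In RD-ES, 8 of 10 members had a log2 difference above 0, as had 56.2% of all genes, with a median of 0.09, against 0.03 over all genes tested. At an unadjusted p under 0.05 there were 3, all higher, against 8.49% of all genes (12.3% in either direction). After median scaling only STAG1 was left, against 5.43% of genes higher, and after quantile normalization STAG1 and STAG2, against 6.06%. STAG1 had control values of 18.5 and 16.9 FPKM against eKD2 values of 22.4 and 22.2 FPKM, a log2 difference of 0.31 ± 0.08 (SE, adjusted p = 0.23, limma). STAG2 had control values of 53.8 and 50.9 FPKM against eKD2 values of 64.3 and 59.8 FPKM, 18.6% higher, with a log2 difference of 0.24 ± 0.08 (SE, adjusted p = 0.311, limma). Both eKD2 libraries were above both controls for each STAG subunit.

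SMC3, the third with an unadjusted p under 0.05, was at 47.6 and 44.5 FPKM in RD-ES control and 56.7 and 51.2 FPKM in eKD2 (log2 0.22, adjusted p = 0.386, limma). RAD21 (126.5 and 115.9 against 127.5 and 126.7 FPKM), NIPBL (40.7 and 40.7 against 49.8 and 42.9 FPKM) and CTCF (23.4 and 22.8 against 25.6 and 24.4 FPKM) also had both eKD2 libraries above both controls. Such separation with eKD2 higher was seen for 6 of 10 members, against 24.2% of all genes. This count is of values before scaling. The RD-ES control libraries had lower medians over the genes tested (12.0 and 12.4 FPKM) than those of eKD2 (12.8 and 12.9 FPKM). SMC1A (129 and 132 against 121 and 129 FPKM), WAPL (18.2 and 15.7 against 16.5 and 16.7 FPKM), PDS5A (68.9 and 66.3 against 75.3 and 67.2 FPKM) and PDS5B (52.4 and 43.5 against 54.8 and 46.2 FPKM) overlapped. For RAD21 the difference of 0.07 became -0.0029 once libraries were scaled to the same median, which lowers the median of all genes by 0.0536.

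In SK-N-MC, 9 of 10 members had a log2 difference below 0, as had 51.1% of all genes, with a median of -0.18, against -0.0049 over all genes tested. At an unadjusted p under 0.05 there were 3, all lower, against 7.29% of all genes (13% in either direction), and 2 after median scaling or quantile normalization, without CTCF. SMC1A had control values of 119 and 121 FPKM against eKD2 values of 92.5 and 97.6 FPKM, a change of -20.9% and a log2 difference of -0.34 ± 0.06 (SE, adjusted p = 0.152, limma). SMC3 had control values of 52.3 and 50.8 FPKM against eKD2 values of 44.6 and 40.6 FPKM, a change of -17.5% (log2 -0.27, adjusted p = 0.284, limma). CTCF had control values of 25.9 and 26.8 FPKM against eKD2 values of 22.9 and 23.2 FPKM, a change of -12.3% (log2 -0.18, adjusted p = 0.347, limma). Over all alternatives the adjusted p of SMC1A ran from 0.122 to 0.47.

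Both SK-N-MC eKD2 libraries were below both controls for 8 of 10 members, against 25.1% of all genes. Besides the 3 above these were STAG1 (31.7 and 31.8 against 28.9 and 26.6 FPKM), RAD21 (337 and 333 against 317 and 293 FPKM), NIPBL (39.3 and 33.8 against 33.1 and 28.9 FPKM), WAPL (15.2 and 13.8 against 13.4 and 12.8 FPKM) and PDS5B (73.8 and 75.1 against 66.3 and 64.7 FPKM). STAG2 overlapped (166 and 186 against 172 and 174 FPKM), with a 95% interval of its log2 difference from -0.21 to 0.17. PDS5A overlapped too, at 67.8 and 73.4 against 72.4 and 73.8 FPKM. In the mean of both lines, where 0.448% of all genes passed, no member passed, and SMC1A alone had an unadjusted p under 0.05 (log2 -0.20, adjusted p = 0.189, limma).

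**Figure D5:**
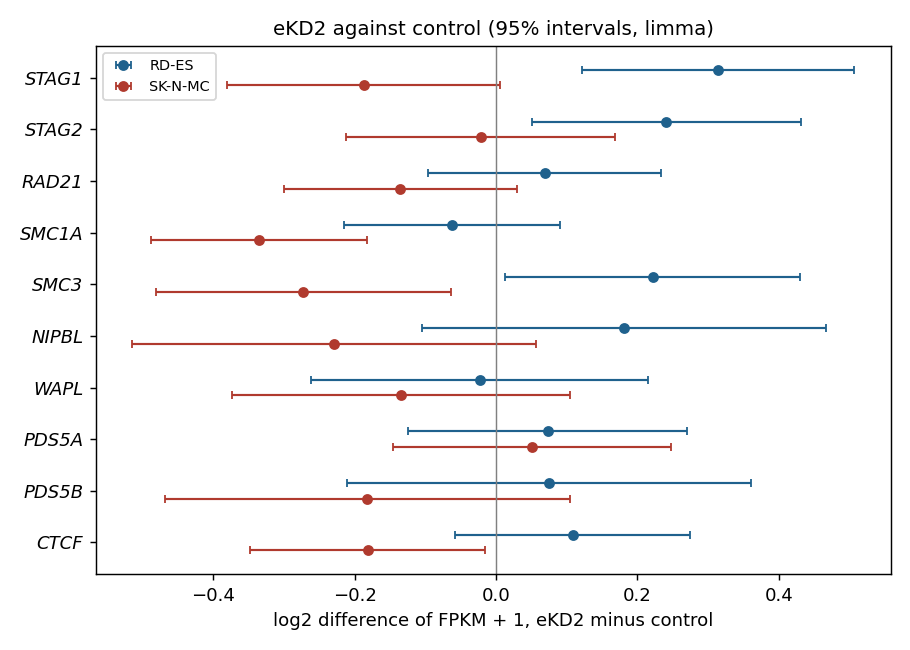
Log2 difference of FPKM + 1 between eKD2 and control (x axis) for each gene (y axis) in RD-ES (blue) and SK-N-MC (red), with 95% intervals from limma. The RD-ES point lies to the right of the SK-N-MC point for all 10 genes, and the intervals exclude 0 for STAG1, STAG2 and SMC3 in RD-ES and for SMC1A, SMC3 and CTCF in SK-N-MC, before adjustment.

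The difference of the eKD2 change between lines was tested directly. It was negative (SK-N-MC below RD-ES) for all 10 members, as for 56.3% of all genes, with a median of -0.27, against -0.05 over all genes tested, and no member passed the adjusted threshold, against 0.244% of all genes. At an unadjusted p under 0.05 there were 5, all negative, against 9.16% of all genes (13.5% in either direction), and 2 after median scaling (STAG1 and SMC3), against 5.67% of genes. These were STAG1 (-0.50 ± 0.11, SE, adjusted p = 0.203), SMC3 (-0.49 ± 0.12, adjusted p = 0.218), NIPBL (-0.41 ± 0.17, adjusted p = 0.362), CTCF (-0.29 ± 0.10, adjusted p = 0.295) and SMC1A (-0.27 ± 0.09, adjusted p = 0.29, all limma). In values before scaling, STAG1, RAD21, SMC3, NIPBL and CTCF had eKD2 above control in RD-ES and below control in SK-N-MC. There was no overlap in either line for these 5 of 10, against 6.69% of all genes. The RD-ES libraries had lower medians over the genes tested in control (12.0 and 12.4 FPKM) than in eKD2 (12.8 and 12.9), and those of SK-N-MC were at 13.4 and 13.6 in control and 13.2 and 13.6 in eKD2. With libraries scaled to the same median, the median of this difference over all genes went up by 0.0734, and that of PDS5A changed sign (0.06 in place of -0.02).

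Markers of proliferation were read beside the members. Of 12 proliferation genes, 10 had a log2 difference below 0 in SK-N-MC eKD2, against 51.1% of all genes, with a median of -0.19, and CDK1 (0.14) and PCNA (0.11) were above 0. At an unadjusted p under 0.05 there were 5, all lower, against the 7.29% of all genes, and none passed the adjusted threshold. RRM2, a ribonucleotide reductase subunit (-0.39), MCM6, a replicative helicase subunit (-0.35), and CCNB1, the mitotic cyclin (-0.26), had the smallest p there. In RD-ES, 7 of the 12 were below 0, against 42% of all genes, with a median of -0.03, and the smallest p belonged to CCNB1 (-0.22), MCM6 (-0.23) and CCNE2 (-0.18). Their part in the member values was not tested.

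Other genes of the pathway were counted from lists. None of the genes of these lists passed the adjusted threshold for eKD2 in either line, in their mean or in their difference. Of 15 cohesin partners and regulators, 6 were lower in SK-N-MC control, against 26.4% of all genes: HDAC8, the SMC3 deacetylase (log2 -0.92), CDCA5, which protects cohesin from WAPL (-0.88), DDX11, a helicase (-0.88), ESPL1, the separase that cleaves RAD21 (-0.82), AURKB, a mitotic kinase (-0.80), and PTTG1, the inhibitor of separase (-0.30). None was higher in control. In eKD2 cells 3 were higher (ATRX, MAU2 and PLK1) and 6 lower (HDAC8, CDCA5, AURKB, ESPL1, DDX11 and BUB1), against the shares of all genes given above. MAU2, the partner of NIPBL, was at 20.4 and 19.2 FPKM in RD-ES control and 25.2 and 24.4 FPKM in SK-N-MC control.

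ATRX, a chromatin remodeller with a part in cohesion, had the smallest p for eKD2 among these 15 in SK-N-MC. SK-N-MC control libraries had 58.1 and 56.6 FPKM against 105 and 139 FPKM in the eKD2 libraries, a log2 difference of 1.06 ± 0.16 (SE, adjusted p = 0.0926, limma). In RD-ES it had control values of 52.1 and 48.7 FPKM against eKD2 values of 78.4 and 62.1 FPKM (log2 0.46, adjusted p = 0.338, limma). Both eKD2 libraries were above both controls in each line. The next smallest p in SK-N-MC belonged to PTTG1 (0.26) and AURKB (-0.33), and in RD-ES the mitotic kinase PLK1 (-0.35) came first and ESCO1 (0.29), which acetylates SMC3, after ATRX.

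Of the germline counterparts, STAG3, SMC1B and RAD21L1 were below the filter and 2 of 5 were tested. CTCFL, the testis paralog of CTCF, was at 0.695 and 1.00 FPKM in RD-ES control and 8.95 and 9.94 FPKM in SK-N-MC control, with a log2 difference of 2.5 (adjusted p = 5.5e-05, limma). Its eKD2 libraries were at 0.571 and 0.793 FPKM in RD-ES against 8.05 and 8.55 FPKM in SK-N-MC. REC8, the meiotic kleisin, was at 0.731 to 3.92 FPKM and did not pass.

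The related SMC complexes were split. Of 14 condensin and SMC5/6 genes, 7 were higher in SK-N-MC control (NSMCE2 1.08, NSMCE1 0.95, NCAPH2 0.63, SMC4 0.61, SMC2 0.56, SMC6 0.50 and NCAPG2 0.39 on the log2 scale), against 31.4% of all genes, and 2 lower (NSMCE4A -0.99 and NCAPD2 -0.95), against 26.4%. For eKD2, 11 of the 14 were below 0 in SK-N-MC, against 51.1% of all genes, 3 of them at an unadjusted p under 0.05 (NCAPD2, NCAPD3 and NCAPH), against 7.29%. In RD-ES 10 of the 14 were above 0, against 56.2% of all genes. NCAPD2 was at -0.39 in SK-N-MC (adjusted p = 0.152, limma) and at -0.22 in RD-ES (adjusted p = 0.324, limma). In eKD2 cells 4 were higher in SK-N-MC (NSMCE1, NSMCE2, NCAPH2 and SMC2), against 28.2% of all genes. Another 5 were lower (NCAPD2, NCAPG, NSMCE4A, NCAPD3 and NCAPH), against 28.1% of all genes. Among factors found at loop anchors, YY1 (0.63), MAZ (0.63) and CHD8 (0.26), which binds CTCF, were higher in SK-N-MC control, and LDB1 (-1.15) and PARP1 (-0.65) were lower. In eKD2 cells these 5 passed in the same direction and NPM1 (-0.24) was lower as well. The shares over all genes were 31.4% higher and 26.4% lower in control cells, and 28.2% and 28.1% in eKD2 cells. For eKD2, CHD8 had the smallest p of that list in both lines (-0.18 in each, adjusted p = 0.438 for RD-ES, 0.413 for SK-N-MC, limma).

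Genes with a pattern like that of the STAG subunits were sought among 8777 genes averaging at least 10 FPKM, by the root mean square difference of log2(FPKM + 1) over the 8 libraries after each gene's mean was subtracted. KIDINS220 (0.042), NARS (0.050) and SP3 (0.053) were closest to STAG1. CLSTN2 (0.056), TMEM44 (0.067) and NSD3 (0.070) were closest to STAG2. STAG1 and STAG2 were 0.53 apart, whereas the closest members to each other were PDS5A and CTCF (0.089), SMC3 and CTCF (0.094), SMC1A and WAPL (0.11) and STAG1 and PDS5B (0.11). STAG2 had RAD21 as its closest member (0.15). As the libraries of a line share their level, this measure reads mostly the difference between lines.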

How the data were processed

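RNA was sequenced as single-end 75-base reads from TruSeq RNA v2 libraries. The authors aligned the reads to GRCh37 with STAR, and the deposited table holds FPKM per gene and library from cufflinks and cuffnorm. The table has 8 columns of per-sample values, all used. Members and gene lists were chosen with earlier results of these data known, and the leukocyte list and the neighbour comparison after values were seen. Differences were fitted on log2(FPKM + 1), so that changes of low genes are understated, for genes averaging at least 1 FPKM, as 4 groups in 1 fit with limma 3.58.1 in R 4.3.3 (eBayes with trend) and Benjamini-Hochberg adjustment over the 15175 genes. Balances were log2 ratios of FPKM, tested by exact permutation with scipy 1.17.1 in Python 3.11.15. Named genes were all 10 members, LOXHD1, the genes of each list past the adjusted threshold in any comparison and, where none passed, those with the smallest p, and the 3 genes most alike to STAG1 and to STAG2, with examples and not every gene named for the proliferation, Ewing sarcoma and loop anchor lists. A gene of the loop anchor list is not reported here. The script was tested on simulated data with 200 changed genes. Depth is known only as a ratio between libraries, from the value of the smallest steps of genes below 0.3 FPKM, shared by 12.6% to 18.6% of genes, so that no counting interval can be given. Replicates correlated at 0.937 to 0.945 across genes and none was identical. Same-numbered libraries did not deviate together (correlation 0.056 for RD-ES, 0.0274 for SK-N-MC). Gene positions and exon overlaps came from the GENCODE release 44 annotation lifted to GRCh37, which held 15009 of the genes tested, and promoters from RefSeq (GRCh38.p14). The locus given in the deposited table spans 14 genes for STAG2, 8 for STAG1 and 5 for RAD21, which overlap in the authors' assembly. The alternatives were a pseudocount of 0.1, no filter or a mean of at least 5 FPKM, median scaling, quantile normalization, no trend, each line alone, a replicate block and leaving out each library. Each member had 1 row, so summing rows could not change its values.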

Additional observations from a re-analysis of the deposited data

Results flagged for a closer look

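In values before scaling, 5 of the 10 cohesin and CTCF genes had eKD2 above control in RD-ES and below control in SK-N-MC, without overlap in either line. The share of all genes tested with these same directions was 6.69%. The RD-ES control libraries had lower medians over the genes tested (12.0 and 12.4 FPKM) than those of eKD2 (12.8 and 12.9 FPKM). After median scaling, STAG1 and SMC3 alone had an unadjusted p under 0.05 (limma) for the difference of changes, against 5.67% of genes lower. The RD-ES change of RAD21, 0.07 as fitted, was -0.0029 with libraries scaled to the same median. Taken as SK-N-MC less RD-ES, the eKD2 change differed by -0.50 for STAG1, -0.49 for SMC3, -0.41 for NIPBL, -0.29 for CTCF and -0.20 for RAD21, on the log2 scale of FPKM + 1. The difference was tested in the limma fit across all genes, and none of the 5 passed the adjusted threshold (adjusted p = 0.203, 0.218, 0.362, 0.295 and 0.43, in the same order). In each line both eKD2 libraries showed the direction in values before scaling. Groups of 2 libraries are too small for a search for outlying libraries.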

How the results depend on the processing

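No member passed for eKD2 in RD-ES, in SK-N-MC, in their mean or in their difference under any alternative run, and the 4 members higher in SK-N-MC control passed in each. The count of 8 members between lines in eKD2 cells was 5 with no filter and 5 to 8 with 1 library left out. The count of all genes called for eKD2 moved more. In RD-ES it was 52, and 26 with no filter, 1 with each line alone, 11 with a replicate block and 27 to 71 with 1 library left out (27 without either SK-N-MC control library, 34 without either SK-N-MC eKD2 library). In SK-N-MC it was 49, and 172, 13, 5 and 12 to 76 in the same order (12 without either RD-ES control library, 22 without either RD-ES eKD2 library, 76 without SK-N-MC eKD2 replicate 1). For the mean of both lines it was 68, and 177 with no filter and 10 with the replicate block. For the difference it was 37, and 170 with no filter, 24 at a mean of at least 5 FPKM, 7 with the replicate block and 54 to 81 with 1 library left out (above 1.5 times the count for all but RD-ES control replicate 2). The replicate block, for libraries that share only a number, changed no member's call for eKD2.

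The balances kept their sign with 1 library left out, from -1.09 to -0.99 for STAG1 to STAG2 and from -0.51 to -0.41 for PDS5A to PDS5B, where 3 against 4 libraries cannot reach the adjusted threshold.

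Signs reversed for small differences only. With median scaling these were RAD21 in RD-ES eKD2 (-0.0029) and PDS5A between lines in control (-0.086), in eKD2 (-0.026) and in the difference of changes (0.060), which was 0.012 with quantile normalization. STAG2 in SK-N-MC eKD2 was 0.0097 with quantile normalization. With 1 library left out, ranges that cross 0 were -0.13 to 0.080 for WAPL, -0.0085 to 0.15 for PDS5A and -0.056 to 0.21 for PDS5B in RD-ES eKD2, -0.10 to 0.057 for STAG2 and -0.0061 to 0.11 for PDS5A in SK-N-MC eKD2, and for PDS5A -0.043 to 0.12 between lines in eKD2 and -0.10 to 0.059 in the difference of changes. The cause was not tested.

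Groups of 2 libraries and FPKM without counts limit what can be seen: the 95% interval of the eKD2 change of NIPBL in RD-ES, among the widest, ran from -0.10 to 0.47. Median scaling moved the share of higher genes among those at an unadjusted p under 0.05 from 69.1% to 41.2% in RD-ES eKD2, from 57.6% to 41.8% in the mean of both lines and from 32.4% to 56.3% in the difference of changes.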
